A study of Mus musculus with 11 samples.

Results

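Large-artery endothelial cells line the wide arteries at the base and surface of the brain. Here they were chosen by the counts of a few genes in single-cell RNA data, not by a physical sort. A barcode was taken when it had at least 500 detected genes and at most 10% mitochondrial molecules, at least 4 unique molecular identifiers (UMIs, each standing for 1 captured RNA molecule) summed over the endothelial genes Cldn5, Flt1, Itm2a and Pecam1, and at most 2 summed over P2ry12, Cx3cr1, Vtn and Myh11, which mark microglia and mural cells. It also needed at least 3 UMIs summed over Pi16, Ccn3, Lypd1, Fbln5 and Cytl1, with at least 2 of these 5 genes detected, and no UMI of Il1r1, Adgrg6 or Col6a6, which mark veins. In all, 1570 cells met the rule, out of 66658 barcodes, 61625 barcodes that passed the quality limits and 38787 endothelial cells. They came from every mouse, with 70 to 260 cells per mouse, and R182C-TgN3 mice gave 817 and WT-TgN3 mice 753 of them.

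The libraries were made from brain vessels of 11 untreated mice, 6 R182C-TgN3 and 5 WT-TgN3, with 1 library for each mouse. Both lines carry human NOTCH3 as a transgene beside their own Notch3. In R182C-TgN3 mice the transgene has the R182C substitution of CADASIL, an inherited small vessel disease, and in WT-TgN3 mice it is wild-type, so no group lacks the human gene. The promoter of the transgene is not given in the sources used here. The R182C-TgN3 mice were 6 months old (1 male, 2 females) or 9 months old (1 male, 2 females), and the WT-TgN3 mice were 6 months old (1 male, 2 females) or 9 months old (1 male, 1 female). Digested vessel fragments were captured with beads carrying antibodies against CD31, an endothelial surface protein, and dissociated again before capture in droplets. The fragments were isolated as microvessels, so wide arteries were sampled only as far as they came along. The labels name 4 preparation batches, of which 2 held mice of 9 months and 2 held mice of 6 months.

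Endothelial cells change along the vascular tree, from arteries through capillaries to veins. In the widest arteries they sit on an elastic lamina, make some of its proteins, respond to strong flow and signal to the smooth muscle around them with nitric oxide, prostacyclin and Notch ligands. Capillary endothelial cells of the brain instead carry the transporters of the blood-brain barrier, which are kept up by Wnt signalling.

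Because the members were selected on the counts of the 5 marker genes, those counts are given only as a description. The median cell held 7 marker UMIs (range 3 to 191). Of the 1570 cells, 953 (60.7%) had 2 of the 5 genes, 436 (27.8%) had 3, 158 (10.1%) had 4 and 23 (1.46%) had all 5. Levels are given in CPM, a gene's UMIs summed over the cells of a class in 1 mouse, per 1000000 UMIs of that class in that mouse. Fbln5, which encodes fibulin-5 of elastic fibres, lay at 127, 410.3 and 579.5 CPM (lowest, median and highest of the 11 mice) in large-artery cells. Its values in the other arterial endothelial cells were 4.09, 13.9 and 30.5 CPM. Those other arterial cells, the comparison class used throughout, passed the same limits, were no members and had at least 3 UMIs with at least 2 genes of Bmx, Gkn3, Hey1, Sema3g and Vegfc; they numbered 5276. Pi16, a peptidase inhibitor, lay at 114, 147 and 234 CPM against 1.09, 3.47 and 10.0 CPM. The secreted protein Cytl1 had 65.1, 247 and 332 CPM against 1.49, 5.92 and 26.9 CPM, the matricellular protein Ccn3 47.5, 212 and 331 CPM against 0.245, 20.1 and 43.0 CPM, and Lypd1 170.5, 214 and 251 CPM against 61.5, 81.3 and 121 CPM. No mouse overlapped between the classes for any of the 5, as the rule sets. At least 1 UMI of Pi16 was found in 44.1% of large-artery cells, 1.71% of other arterial cells and 0.127% of microglia, which should lack it. With every cell thinned to 2000 UMIs, these shares were 22.1%, 0.708% and 0.0372%.

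**Figure D1:**
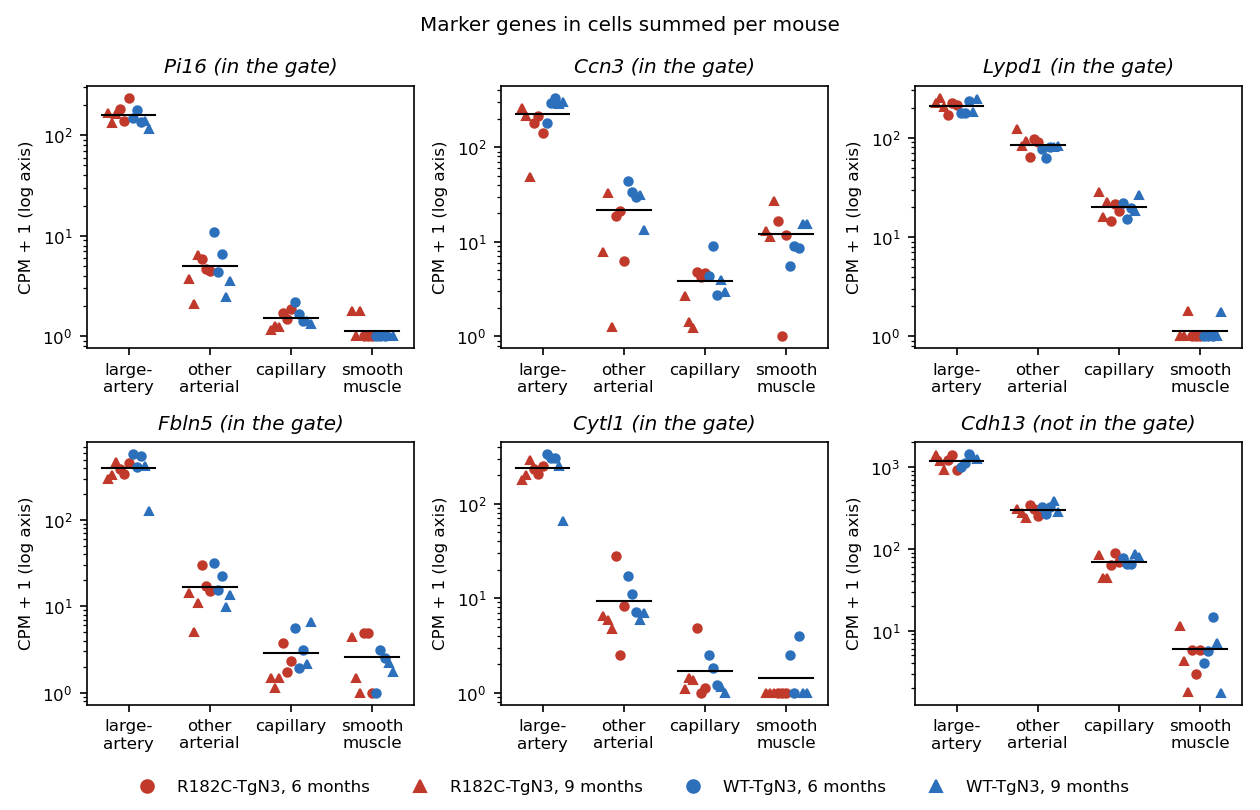
Levels of the marker genes in 4 classes of cells, in CPM + 1 on a log axis, with 1 point for each of the 11 mice. The 5 genes of the rule separate large-artery from other arterial endothelial cells in every mouse because they chose the cells. The rule did not use Cdh13, though this gene was named as a marker with earlier results of these data known. Cdh13 lies between 911 and 1438 CPM in large-artery cells and between 239 and 387 CPM in other arterial cells.

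As to the label, the cells held both general and arterial endothelial genes. All 14 genes of a pan-endothelial list were detected in numbers that could be tested, and the 5 genes that chose the comparison class were at similar levels in large-artery cells, where the rule did not ask for them. Bmx lay at 453 ± 105 CPM (SD, n = 11 mice) against 351 ± 84.8 CPM, and Gkn3 at 789 ± 205 against 758 ± 208 CPM, while capillary endothelial cells had 15.4 ± 4.83 and 8.57 ± 3.45 CPM. Of the large-artery cells, 1400 (89.2%) also met the rule of the other arterial cells. The remaining 170 cells were less arterial, with Gkn3 at 57.3 CPM, Bmx at 109 CPM and Mgp at 1007 CPM (means over mice), and had Ccn3 at 560.3 CPM, Lypd1 at 334 CPM and S100a6 at 806 CPM, so this minority goes against the name in part. Human NOTCH3, the transgene, gave 7 UMIs in all large-artery cells, all of them in R182C-TgN3 mice (0 to 2.92 CPM). Smooth muscle cells held it at 200.9 to 363 CPM in R182C-TgN3 and 24.4 to 75.2 CPM in WT-TgN3 mice, with no overlap between the lines. Mouse Notch3 lay at 2.16 CPM in large-artery and 651 CPM in smooth muscle cells.

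Depth, repeated barcodes and 2 libraries bear on the values. The libraries held 17550806 to 64215050 UMIs. The median large-artery cell had 7350.5 UMIs against 5807.5 in other arterial cells, so that a gene is found more readily in the former. Some cell barcodes occurred in more than 1 library, up to 350 for a pair of libraries (10.25% of the smaller), and 44 large-artery and 85 other arterial cells had such a barcode. In R182C-TgN3 4, large-artery cells were the shallowest, with a median of 4336 UMIs against 5185.5 to 11151 in the other mice. The large-artery cells of WT-TgN3 5 also stood apart. Their summed neuronal markers reached 327 CPM, of which Meg3 made 241 CPM, against 5.47 to 11.6 CPM in the other mice. This mouse had the lowest level of all 11 in 38 of 105 genes that were at least 2-fold higher in large-artery cells and detected at 50 CPM or more, and the highest in 19 of 57 such genes that were lower.

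The first comparison set large-artery cells against other arterial cells of the same mice and asked which genes mark wide arteries beyond the 5 that chose the cells. It used UMI counts summed per mouse and class, and edgeR's quasi-likelihood test with the mouse as a block. P-values were adjusted by the method of Benjamini and Hochberg, and the genes of both rules were left out of the test. At an adjusted p under 0.05, 3006 of 9458 genes (31.8%) differed, 1587 (16.8%) higher and 1419 (15.0%) lower in large-artery cells. The change went the same way in all 11 mice for 670 of the higher and 602 of the lower genes, and was over 2-fold for 249 and 102. The median log2 fold change over all genes tested was -0.01. With the cells thinned to 2000 UMIs, 1390 of 6261 genes were called, without the mouse block 1911 of 9458, and in WT-TgN3 mice alone 1774. Leaving out WT-TgN3 5 gave 2930 called genes, leaving out R182C-TgN3 4 gave 2893, and removing the repeated barcodes gave 2950. No gene called both here and in one of the alternatives tried had opposite directions in the pair. Both classes were defined from counts in the same cells, so genes that vary with the marker genes differ by the choice of cells. A gene was tested when at least 11 sums, each of 1 mouse and 1 class, reached 5.51 CPM. These could come from 1 class or from both, so a gene that passes mainly where it is high is favoured to differ. Both classes reached 5.51 CPM in every mouse, the limit used below, for 7866 of the 9458 genes. Of these, 1368 were higher and 1223 lower, and the counts over such genes are given for the lists that this touches most. A single number in parentheses after a gene is its log2 fold change, of a gene called in the comparison.

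Matrix genes of the elastic artery wall were mostly higher in large-artery cells where they could be measured in both classes. Of 27 genes of elastic fibres and vessel matrix, 14 did not pass the filter on low counts and have no test. Of the other 13, 3 (Bgn, Lox and Vcan) did not pass the limit in both classes. Of the 10 that did, 9 were higher, none was lower and Efemp2, a fibulin, was not called, with a median log2 fold change of 0.94. Bgn, which encodes the proteoglycan biglycan (ENSMUSG00000031375, chrX:73483602-73495933 in mm10), had 20.5, 129 and 163 CPM in large-artery cells (lowest, median, highest) and 1.49, 4.64 and 12.5 CPM in other arterial cells. The ranges did not touch, and its log2 fold change of 4.23 (SE 0.16, edgeR adjusted p = 2.79e-19) came second among the 12 largest rises of genes at 50 CPM or more. Mgp, the matrix Gla protein that keeps arteries free of calcium (ENSMUSG00000030218, chr6:136872435-136875823), had 1202, 2968 and 4471 CPM against 512, 702 and 1067 CPM. It was higher in all 11 mice, by 2.02 on the log2 scale (SE 0.07, adjusted p = 4.92e-20). Timp3, an inhibitor of matrix proteases, had 2087, 2376 and 3018 CPM against 957, 1189 and 1348 CPM, a log2 fold change of 1.10 (SE 0.04, adjusted p = 1.20e-18).

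Genes outside the naming rule in the same list, picked after their values were seen, included elastin itself. Eln had 135, 501 and 758 CPM in large-artery and 75.2, 105 and 186 CPM in other arterial cells, and the lowest large-artery value, that of WT-TgN3 5, lay within the range of the other class. Its log2 fold change was 2.14 (SE 0.09, adjusted p = 6.82e-18). Lox, the enzyme that crosslinks elastin, lay at 23.9 ± 7.02 CPM against 3.44 ± 1.32 CPM. Fbn1, fibrillin-1 of the microfibrils, rose from 39.4 ± 9.30 to 96.2 ± 17.9 CPM (adjusted p = 3.21e-15), and the proteoglycan Vcan lay at 18.2 ± 6.12 against 1.99 ± 0.809 CPM. Fn1, fibronectin, rose little, by 0.23 on the log2 scale (adjusted p = 3.77e-06). Smooth muscle cells and fibroblasts also make these proteins, with Bgn at 195 ± 42.6 CPM in smooth muscle cells and Mgp at 8551 ± 3847 CPM in fibroblasts. When only cells with no UMI of P2ry12, Cx3cr1, Vtn and Myh11 were used, 12 of 13 tested genes were higher and none lower, as in the main result and without WT-TgN3 5. These counts were not restricted to genes that passed the limit in both classes.

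In a list of 15 markers of large arteries that the rule did not use, 12 were higher, 2 were lower and 1 was not called. The median log2 fold change was 1.01 (11 higher, 2 lower and a median of 0.90 over the 14 that passed the limit in both classes). The list, with Cdh13 in it, was chosen with earlier results of these data known. It is a description and gives no independent support for the name of the cells. Cdh13, encoding T-cadherin, an adhesion protein anchored in the outer membrane leaflet (ENSMUSG00000031841, chr8:118283733-119324921), had 911, 1230.5 and 1438 CPM against 239, 308 and 387 CPM. Its log2 fold change was 2.02 (SE 0.05, adjusted p = 1.37e-23), and its ranges were far apart. S100a6, a calcium-binding protein, had 343, 456 and 595 CPM against 53.7, 89.5 and 125 CPM (adjusted p = 2.09e-21). The members that fell were Cdkn1c, a cell cycle inhibitor, at 220.0 ± 40.1 against 333 ± 57.9 CPM (log2 fold change -0.57), and Gas6, a ligand of TAM receptors, at 164 ± 29.2 against 186 ± 23.3 CPM (log2 fold change -0.16, adjusted p = 0.0178). Cst3 had 837 ± 118 and 817 ± 137 CPM, with adjusted p = 0.355.

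**Figure D2:**
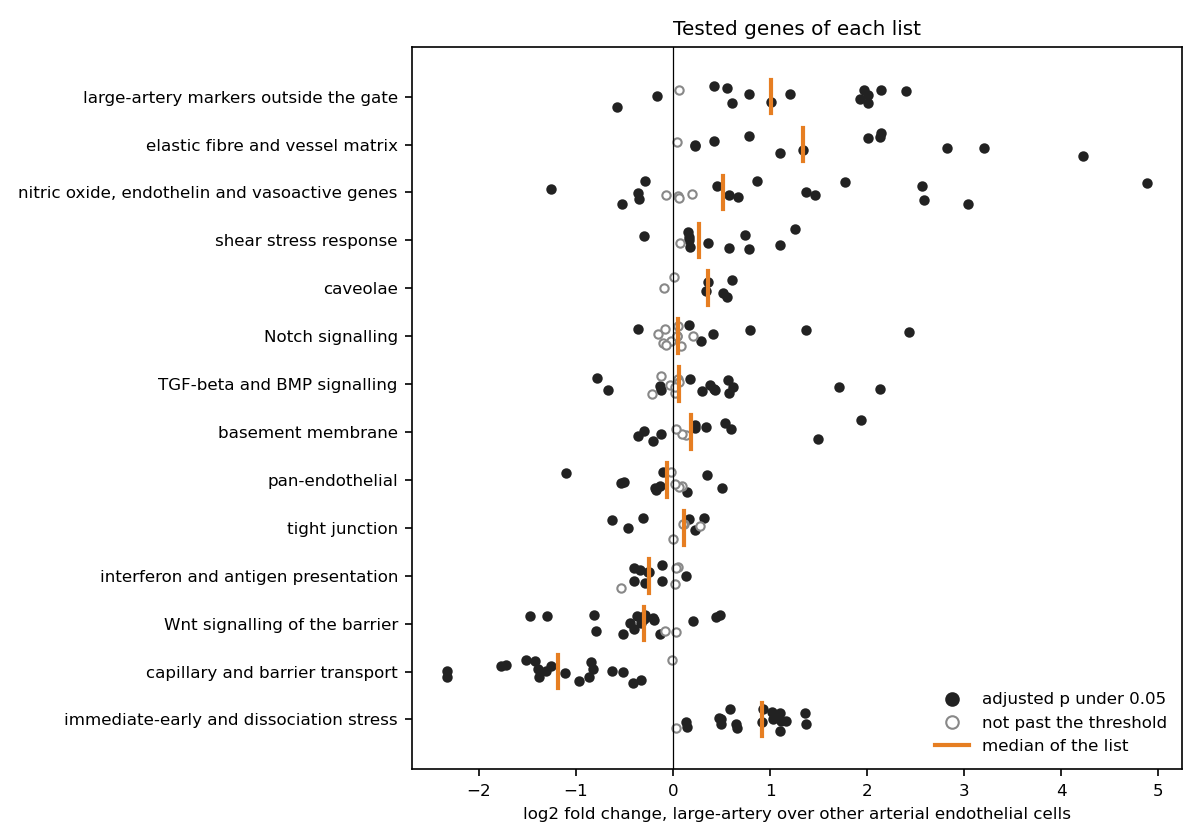
Log2 fold change of each tested gene, large-artery against other arterial endothelial cells, in lists of genes by function, with 1 point per gene and a bar at each list's median. Over all genes tested, the matrix, large-artery marker and immediate-early lists lie to the right, with medians of 1.34, 1.01 and 0.92, and the capillary and barrier transport list lies to the left, with a median of -1.19. Over genes that passed the limit in both classes, the matrix and large-artery marker medians are 0.94 and 0.90.

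Among all genes outside the rules, the 12 largest rises that went the same way in every mouse and reached 50 CPM were led by S100a4, a calcium-binding protein. It had 48.8, 101 and 195 CPM in large-artery cells and 0.744, 6.01 and 10.7 CPM in other arterial cells, a log2 fold change of 4.35 (SE 0.13, adjusted p = 4.03e-21). After Bgn came Ssu2 at 50.6 ± 18.0 against 3.55 ± 1.74 CPM and Synpo, the actin-associated protein synaptopodin, at 56.0 ± 11.6 against 5.50 ± 2.32 CPM, with log2 fold changes of 3.87 and 3.32. Scara3, a scavenger receptor, rose by 2.97, the transcription factor Sox6 by 2.91 and Fabp4, a fatty acid carrier, by 2.89 on the log2 scale. Smooth muscle cells held more Sox6, at 355 to 790 CPM against 51.8 to 105 CPM in large-artery cells. They held Synpo at 58.6 to 99.6 CPM against 30.1 to 71.9 CPM, while Ssu2 and Scara3 were lower there in every mouse. Fabp4 was the most variable of these, with 21.9, 40.5 and 113 CPM in large-artery cells and a highest value of 23.8 CPM in the other class, which overlapped. The list ended with Ptgis (2.57), Emp3 (2.48), the growth factor-binding protein Igfbp4 (2.44), S100a6 and Anxa1 (2.33), a phospholipid-binding protein that dampens inflammation. Adjusted p-values of these 12 rises ran up to 4.80e-09. Of them, S100a4, Bgn, Ssu2, Synpo, Scara3, Sox6, Fabp4 and Ptgis did not reach 5.51 CPM in every mouse in other arterial cells. Their tests thus rest in part on the class where they are high, though Scara3 (3.72 to 17.0 CPM) and Sox6 (2.18 to 15.9 CPM) reached it in some mice of the other class.

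The genes of the blood-brain barrier went the other way. Of 20 genes of capillaries and barrier transport, all were tested, 19 were lower in large-artery cells, none was higher and Rgcc was not called, and the median log2 fold change was -1.19 (18 of 19 lower without Car4, which did not pass the limit in both classes). Mfsd2a, a lipid transporter that keeps vesicle traffic across the barrier low (ENSMUSG00000028655, chr4:122946850-122961188), had 11.7, 20.8 and 37.9 CPM against 89.6, 113 and 147 CPM, with no overlap. Its log2 fold change was -2.33 (SE 0.09, adjusted p = 2.17e-19), and capillary endothelial cells held 173 ± 31.3 CPM. Slco1a4, an organic anion transporter, lay at 507, 656 and 921 CPM against 1519, 1751 and 2454 CPM (-1.42, SE 0.04, adjusted p = 1.70e-22). Its relative Slco1c1, which carries thyroid hormone, had 702 ± 101 against 1700.1 ± 143 CPM, and the matrix proteoglycan Spock2 831 ± 103 against 2088 ± 253 CPM, each lower in 11 of 11 mice. The count of 19 lower and none higher also stood with cells thinned to 2000 UMIs, where the classes have equal depth.

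Of the 12 largest falls, Slc22a8, Mfsd2a and Slc16a1 belong to that list, the first an organic anion exchanger and the last a lactate carrier, with Slc22a8 at 23.7 ± 9.22 against 117 ± 14.1 CPM and Slc16a1 at 30.9 ± 10.5 against 107 ± 23.3 CPM. Ddc, which decarboxylates L-DOPA to dopamine, had 5.71, 7.98 and 20.5 CPM in large-artery and 53.5, 67.7 and 79.7 CPM in other arterial cells, with no overlap and a log2 fold change of -2.75 (SE 0.11, adjusted p = 2.08e-18). The secreted protein Ndnf (-2.10), Ccdc85a (-1.88), the glutamine transporter Slc38a3 (-1.88), the matrix protein Hmcn1 (-1.85) and Gatm (-1.83), which makes the precursor of creatine, were also among them.

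Also among the 12 falls were the neighbours Mt2 and Mt1 on chromosome 8. They encode metallothioneins, small proteins that bind zinc and copper and whose genes are switched on by metal through the factor MTF1. Their promoters are printed because both genes fell together. The sequences are from RefSeq on GRCm38.p6, from 250 bases before to 50 bases after the gene start on the plus strand, Mt2 at chr8:94172368-94172667 and Mt1 at chr8:94178839-94179138. Capitals mark TGCNCNC, a pattern wider than the core of the metal response element, or its reverse complement GNGNGCA. They were found by letters alone on either strand, and a marked stretch need not be such a core.
Mt2: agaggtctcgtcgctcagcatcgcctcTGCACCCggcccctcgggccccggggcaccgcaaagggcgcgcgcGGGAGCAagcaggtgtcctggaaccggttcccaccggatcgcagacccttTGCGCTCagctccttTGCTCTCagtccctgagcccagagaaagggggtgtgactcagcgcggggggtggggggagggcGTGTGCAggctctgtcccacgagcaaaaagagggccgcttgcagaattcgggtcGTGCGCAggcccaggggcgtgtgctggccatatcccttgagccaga
Mt1: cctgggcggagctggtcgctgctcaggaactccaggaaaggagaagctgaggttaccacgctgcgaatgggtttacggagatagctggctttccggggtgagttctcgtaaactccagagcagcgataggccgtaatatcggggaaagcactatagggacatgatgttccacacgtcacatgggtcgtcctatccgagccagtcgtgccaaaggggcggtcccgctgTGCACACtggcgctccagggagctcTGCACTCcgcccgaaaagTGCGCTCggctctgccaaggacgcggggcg

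The Mt2 promoter held 6 matches of the wider pattern, a count reached by 0.225% of 32851 promoters of this length. The Mt1 promoter held 3, reached by 7.10% of promoters, while 51.0% hold at least 1. A match of letters is no evidence of a bound site. Mt1 had 32.0, 52.5 and 138 CPM in large-artery cells and 144, 203 and 270.1 CPM in other arterial cells, a log2 fold change of -1.78 (SE 0.10, adjusted p = 6.22e-15). Mt2 had 6.86, 12.2 and 44.6 against 44.2, 59.4 and 82.7 CPM and -1.84 (SE 0.14, adjusted p = 5.39e-12). The classes did not overlap for Mt1. For Mt2 they met, since the highest large-artery value came from WT-TgN3 5, as it did for Mt1, and without this mouse the log2 fold changes of Mt1 and Mt2 were -1.97 and -2.11 (Mt1 and Mt2, large-artery against other arterial endothelial cells). Levels were higher again away from the arteries, with Mt1 at 756 ± 99.9 CPM in capillary and 749.7 ± 161 CPM in venous endothelial cells.

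**Figure D3:**
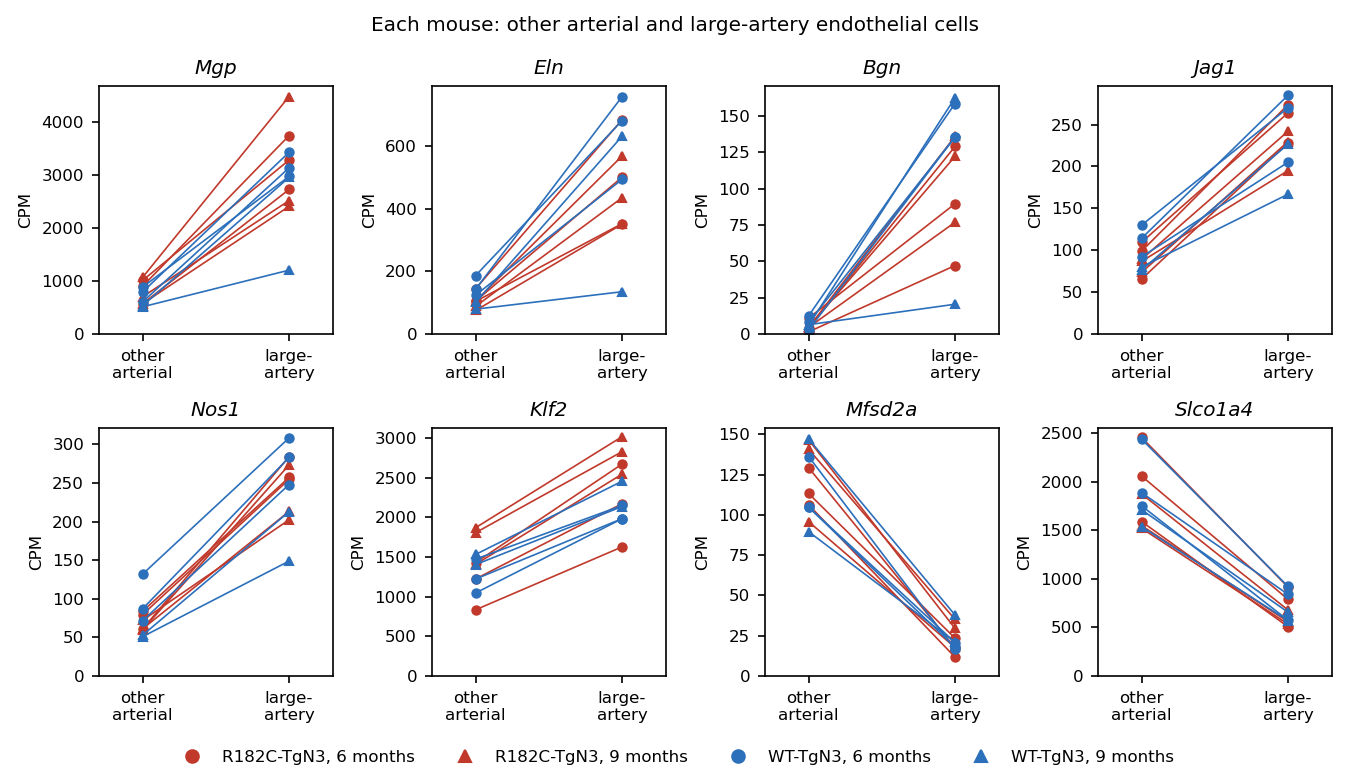
Level of 8 genes in other arterial and in large-artery endothelial cells, in CPM, with a line for each of the 11 mice joining its values in the 2 classes. Lines of the genes that rise go up in every mouse and lines of the genes that fall go down in every mouse, as for Mfsd2a, which has 89.6 to 147 CPM in other arterial and 11.7 to 37.9 CPM in large-artery cells.

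Wnt signalling genes of the barrier, which sustain many of these transporters, moved mostly with them. Of 19 tested, 14 were lower and 3 higher, with a median log2 fold change of -0.29. Apcdd1, a Wnt target and inhibitor, had 50.5 ± 10.0 against 127 ± 14.5 CPM (-1.30, adjusted p = 7.73e-17). Nkd1, another target that feeds back on the pathway, had 24.8 ± 8.27 against 70.6 ± 15.8 CPM (-1.47, adjusted p = 6.66e-15), and the transcription factor Lef1 502 ± 74.0 against 728 ± 91.4 CPM (-0.51, adjusted p = 5.32e-12). The 3 that rose were the related factors Tcf7l1 (0.48) and Tcf7l2 (0.21) and Reck (0.44), a membrane protein of the Wnt7 receptor complex. Tight junction genes were split, with 3 of 10 higher and 3 lower. Jam2 rose by 0.32 and Cgnl1 by 0.17, whereas Ocln, encoding occludin, changed by -0.46 and Tjp1, its scaffold, by -0.31. Caveolae genes, which build the vesicles that the barrier holds down, were higher in 5 of 7 and lower in none, led by Ehd2 (0.51), Cavin1 (0.56) and Ehd4 (0.61).

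The Notch ligand Jag1 was higher in large-artery cells, while most genes of the pathway were not called. Of 17 tested genes of Notch signalling, 6 were higher and 1 lower, and the median was 0.06. Without Dll1 and Hey2, which did not pass the limit in both classes, 4 of 15 were higher. The count of higher genes was 3 of 13 with cells thinned to 2000 UMIs, 3 of 15 in cells with no UMI of the other-cell genes and 3 of 17 in WT-TgN3 mice alone, and none of those fits but the second called a gene lower. The ligand Jag1 (chr2:137081456-137116644) had 167, 229.7 and 285 CPM against 65.6, 89.2 and 130.0 CPM, with separate ranges, and a log2 fold change of 1.37 (SE 0.06, adjusted p = 3.03e-18). Jag2 rose by 0.42 (adjusted p = 5.91e-09), and Hey2, a transcription factor downstream of Notch in arteries, by 2.44 (SE 0.22, adjusted p = 1.07e-10), from 1.36, 3.19 and 7.50 to 6.03, 21.9 and 28.2 CPM. Its lowest large-artery value, from WT-TgN3 5, lay within the range of the other class. Smooth muscle cells held Hey2 at 144 ± 21.7 CPM. The ligand Dll4 had 121 ± 15.9 against 129 ± 24.5 CPM (adjusted p = 0.253) and the receptor Notch1 242 ± 19.5 against 249 ± 25.3 CPM (adjusted p = 0.796), while Lfng, a sugar transferase that tunes the receptors, was lower (-0.36, adjusted p = 0.00926). In a broader list of arterial identity, 7 of 18 genes were higher and 2 lower, with Stmn2 at 0.51 and the netrin receptor Unc5b at -0.80.

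In the TGF-beta and BMP list, 10 of 21 tested genes were higher and 4 lower, with a median of 0.06. Ltbp1, which stores latent TGF-beta in the matrix, had 76.0 ± 32.4 against 17.1 ± 6.96 CPM (2.13, adjusted p = 5.91e-17), the ligand Bmp6 43.3 ± 14.2 against 14.1 ± 5.55 CPM (1.71, adjusted p = 6.26e-11) and the target Id1 1175 ± 216 against 804 ± 131 CPM (0.57, adjusted p = 7.61e-13). Of the receptors, Tgfbr2 (-0.67), Tgfbr3 (-0.78) and Bmpr2 (-0.13) were lower. Bmp4, picked after its values were seen, did not pass the filter on low counts and has no test. It lay at 2.41, 43.5 and 98.4 CPM in large-artery cells and 0, 0.515 and 3.50 CPM in other arterial cells, with 602 and 38 UMIs in all, and its lowest large-artery value fell in the range of the other class.

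Single genes of vessel tone were far higher, while the list was mixed. Of 20 tested, 11 were higher and 5 lower, with a median of 0.52. Of these, 7 did not pass the limit in both classes, among them Ptgis, Kcnn3 and Kcnn4, named below. The tests of these 3 genes thus rest in part on the class where they are high. Of the other 13, 5 were higher and 4 lower, with a median of 0.06. Thinned to 2000 UMIs, 6 of 14 were higher and 4 lower (median 0.11), as in cells with no UMI of the other-cell genes (median 0.12). Nos1, the neuronal form of nitric oxide synthase (chr5:117781032-117958840), had 149, 255 and 308 CPM against 51.0, 71.6 and 132 CPM, apart in every mouse (1.77, SE 0.07, adjusted p = 3.22e-19), and 1.35 CPM in capillary cells. Ptgis, prostacyclin synthase, had 46.4, 83.3 and 122 against 4.91, 12.2 and 32.3 CPM (2.57, adjusted p = 4.82e-16). The calcium-activated potassium channel Kcnn3 had 7.83, 18.3 and 27.9 CPM against 0, 0.481 and 1.23 CPM, from 230 and 18 UMIs in all, and since 3 mice had none in other arterial cells no fold change is given. Its relative Kcnn4, outside the naming rule and chosen after its values were seen, had 6.03, 31.4 and 37.2 against 0.744, 2.87 and 7.12 CPM, overlapping by WT-TgN3 5 alone. Both channels hyperpolarize the endothelium. Those that fell were led by the peptide Edn3 (76.2 ± 16.6 against 190.4 ± 33.1 CPM, -1.25), the receptor component Calcrl (-0.36) and Ddah1 (-0.29). Among connexins, which couple neighbouring cells, Gja4 (1.01) and Gja5 (1.20) were higher and Gja1 (-1.26) and Gjc1 (-0.41) lower.

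Flow-responsive and immediate-early genes were both higher. In the shear stress list, 10 of 12 tested genes were higher and Txnip was lower (-0.30), with a median of 0.27. The count of higher genes was 7 of 12 with cells thinned to 2000 UMIs and 7 of 12 in WT-TgN3 mice alone. It was 6 of 12 without the mouse block and 10 of 12 in cells with no UMI of the other-cell genes. Klf2, a transcription factor induced by laminar flow, had 1627, 2172 and 3017 CPM against 835, 1408 and 1869.5 CPM (0.78, SE 0.04, adjusted p = 6.99e-17), and Klf4 1459 ± 240.1 against 891 ± 169 CPM (0.74, adjusted p = 2.71e-16). The ranges overlapped for Klf2 and not for Klf4, and each gene was higher in 11 of 11 mice when classes of the same mouse were compared. Of 19 immediate-early and dissociation stress genes, 18 were higher, none lower and Hspa8 was not called, with a median of 0.92. Egr1 had 1344, 1829 and 3669.6 against 544, 842 and 1637 CPM (1.11, adjusted p = 1.72e-18), Fos 3523 ± 969 against 1779.7 ± 581 CPM (1.03) and Zfp36 763 ± 199 against 365 ± 118 CPM (1.10). Immediate-early genes are also induced when tissue is digested, and the part of the digestion in either list was not tested. Hspa1a and Hspa1b in this list are near-identical copies whose reads cannot be split with certainty.

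Other lists gave mixed counts. Basement membrane genes were higher in 7 of 14 and lower in 4, with Col18a1 at 204 ± 38.9 against 73.9 ± 20.6 CPM, Col8a1 (1.94) and Lama3 (0.60) up and Sparc (-0.30), Agrn (-0.36) and Col4a2 (-0.20) down. Among pan-endothelial genes, 3 of 14 were higher and 7 lower, including Kdr, the main VEGF receptor, at 144 ± 33.5 against 309 ± 39.2 CPM (-1.11), and Podxl, higher by 0.50. In the venous list, 3 of 8 were higher, among them the adhesion molecule Vcam1 (1.16) and the clotting factor Vwf (0.71), and Ctsc was lower (-0.67). With cells thinned to 2000 UMIs, 5 of 7 were higher and none lower. The 14 venous genes summed to 749 to 1929.9 CPM in large-artery cells (median 1098) and 556 to 1026 CPM in other arterial cells (median 651), higher in 11 of 11 mice. The vein genes Nr2f2 and Slc38a5 lay at 8.18 and 3.14 CPM, against 11.1 and 6.52 CPM in other arterial and 283 and 340.2 CPM in venous cells. Leukocyte adhesion and coagulation genes were higher in 5 of 10 and lower in 1, with Cd9 up (1.06) and Plat, a plasminogen activator, down (-0.59). Interferon and antigen presentation genes were lower in 8 of 13 and higher in 1, with small changes such as Isg15 at -0.40. In hypoxia and glycolysis, 5 of 13 were higher, led by Pfkp (1.19), and 4 lower.

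Marker genes of other cell types are given beside these results because Bgn, Mgp, Hey2, Sox6 and Synpo are also found in smooth muscle cells or fibroblasts. The summed level of 10 smooth muscle markers ran from 149.97 to 398 CPM in large-artery cells (median 221) and from 102 to 435 CPM in other arterial cells (median 139). Within mice, it was higher in large-artery cells in 10 of 11. Smooth muscle cells had 24448 to 35773 CPM. Most of the large-artery sum came from Mylk, a kinase of contraction (181 CPM). Of the 4 tested, Mylk and Mustn1 were higher and none lower. The defining Acta2 lay at 15.7 ± 17.3 against 18.6 ± 30.2 CPM (log2 fold change -0.07, adjusted p = 0.808) and Tagln at 12.9 against 11.8 CPM (adjusted p = 0.203). The 10 fibroblast markers summed to between 30.6 and 69.98 CPM against 24.5 to 93.9 CPM, with Lum at 0 in all large-artery cells, Igf2 higher (2.04) and Apod lower (-1.16). Pericyte markers summed to 10.6 to 75.7 CPM against 15.8 to 94.8 CPM, with Rgs5 lower (-0.75), and microglia markers to 155 to 535 CPM against 280 to 704 CPM, with 4 of 6 tested genes lower and none higher. Of the remaining lists, erythroid genes were lower in 5 of 5 (0 of 5 in R182C-TgN3 mice alone), fenestrated endothelial in 3 of 4, choroid plexus and ependymal in 1 of 2 and neuronal in 1 of 1, and the 2 astrocyte, 1 oligodendrocyte and 1 lymphatic genes tested were not called. Without the mouse block, no gene of the microglia, erythroid, fenestrated, or choroid plexus and ependymal lists was called. Over genes that passed the limit in both classes, 2 of 2 microglia, 2 of 2 erythroid and 1 of 2 fenestrated genes were lower. The summed levels in large-artery and other arterial cells were 27.9 to 11558 and 1919 to 12116 CPM for erythroid genes, 94.2 to 1150.3 and 75.1 to 2709 CPM for choroid plexus and ependymal genes, and 5.47 to 327 and 10.8 to 233 CPM for neuronal genes. The part of these cell types in the results was not tested. None of 6 leukocyte genes could be tested, and Cd3e, Nkg7, S100a8 and S100a9 had no UMI in large-artery cells, nor had the ependymal Ccdc153.

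Cells near the edge of the rule lay nearer to the other arterial cells. The 236 members with exactly 3 marker UMIs (15.0%) had Mgp at 1535 CPM, Eln at 202 CPM and Cdh13 at 905 CPM (means over mice). Just outside, 228 cells with 2 UMIs from 2 marker genes had 1511, 167 and 605 CPM, and 802 cells with at least 3 UMIs but from 1 gene had 748, 119 and 622 CPM, so the levels changed by degrees across the limit of the rule. When the members of each mouse were ordered by the share of marker UMIs in their total and split into equal parts, Mgp ran from 1499 CPM in the lowest part to 6103 CPM in the highest, Eln from 207 to 1072 CPM, Bgn from 14.9 to 335 CPM and Hey2 from 7.42 to 48.6 CPM. Mfsd2a went from 38.4 to 6.08 CPM and Slco1a4 from 913 to 487 CPM. These values are a description, since the ordering uses the genes of the rule, and the median cell held 10681 UMIs in the lowest part and 5971 in the highest.

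**Figure D4:**
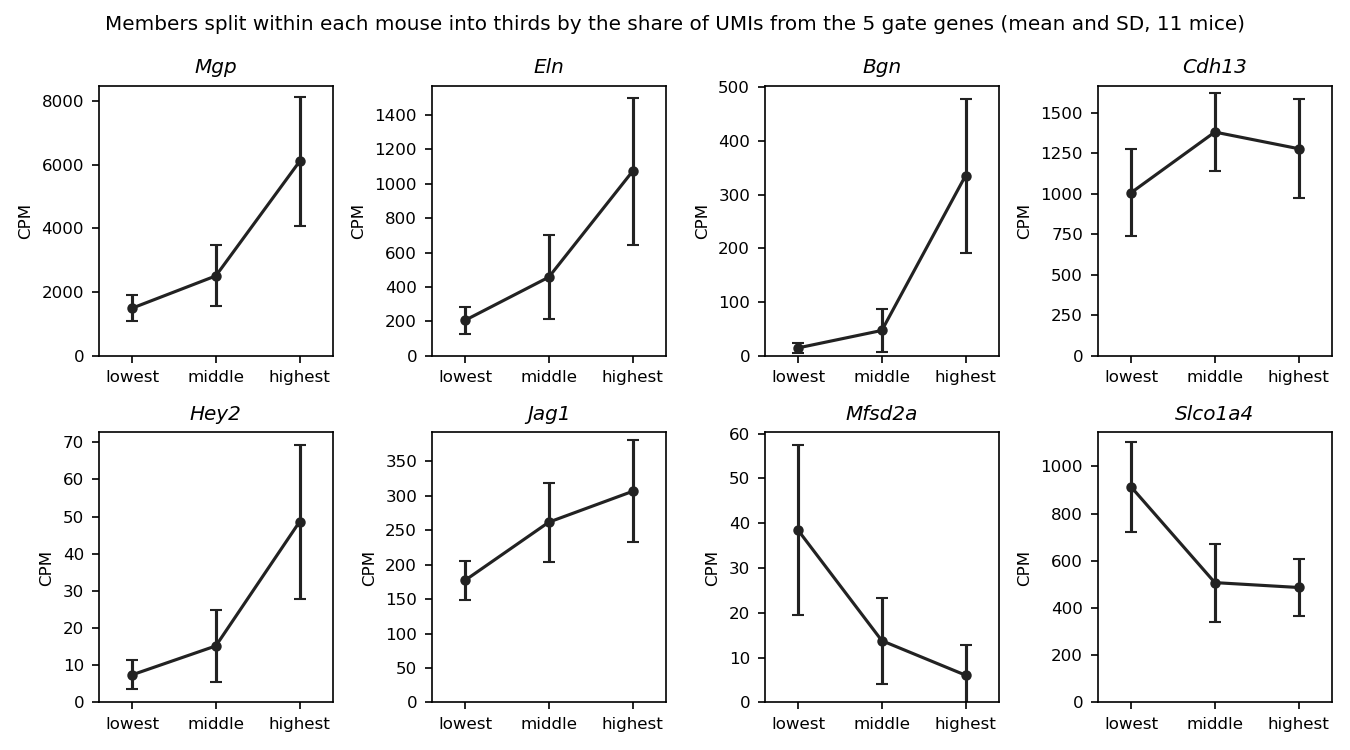
Mean level of 8 genes, in CPM with SD over the 11 mice, in large-artery cells split within each mouse into the lowest, middle and highest part by share of marker UMIs. Mgp, Eln, Bgn and Hey2 are highest and Mfsd2a and Slco1a4 lowest in the part richest in marker UMIs, with Mgp at 1499 CPM in the lowest and 6103 CPM in the highest part.

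The share of large-artery endothelial cells among all endothelial cells was compared between genotypes over mice. It was 3.79% ± 1.01 (SD, n = 6) in R182C-TgN3 and 4.47% ± 1.53 (n = 5) in WT-TgN3 mice. In R182C-TgN3 it ran from 2.32% to 5.28% with a median of 3.78%, and in WT-TgN3 from 2.28% to 6.37% with a median of 4.72%, so the groups overlapped nearly over their whole range. The difference of -0.682 percentage points did not pass the 2-sided exact permutation test (p = 0.400 over 462 splits, where the smallest possible p is 0.00216). Within batches the difference was -0.389 points, made of -0.894 in batch 1, -0.650 in batch 3 and 1.14 in batch 4, and batch 2 held 1 R182C-TgN3 mouse alone. Wilson 95% intervals of single mice, which cover counting error only, were as wide as 5.53% to 7.34% in WT-TgN3 4.

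Between genotypes, no gene of the large-artery cells passed the threshold. Of 9022 genes tested with edgeR's quasi-likelihood test, 0 (0%) were called, 206 had an unadjusted p under 0.05, and DESeq2 called 0, with 111 at such a p. The median log2 fold change was 0.00. The 3 genes of smallest p were all lower in R182C-TgN3. Erbb4, a neuregulin receptor, lay at 2.92, 12.5 and 25.7 CPM in R182C-TgN3 (lowest, median, highest of 6) and 15.4, 39.4 and 47.6 CPM in WT-TgN3 mice (of 5), which overlapped, with a log2 fold change of -1.53 (SE 0.35) and adjusted p = 1.00. In cells with no UMI of the other-cell genes the log2 fold change was -0.28 (Erbb4, genotype in large-artery endothelial cells). Jazf1, a nuclear zinc finger protein, had 31.3, 40.7 and 57.6 CPM against 56.0, 63.8 and 76.5 CPM, a change of -0.63 (SE 0.15) with adjusted p = 1.00. For Lmntd1 the groups did not overlap, 20.5, 26.6 and 31.3 against 34.9, 39.9 and 44.6 CPM (-0.60, SE 0.14, adjusted p = 1.00). Leaving out WT-TgN3 5 gave 1 called gene, Kirrel3, with a log2 fold change of -1.17 and adjusted p = 0.0108.

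Genes that were higher in large-artery than in other arterial cells were measured in each genotype, with intervals that leave room for moderate changes. Mgp had 3186 ± 806 CPM with the mutant and 2734 ± 877 CPM with the wild-type transgene. The 95% interval of its log2 fold change, 0.26, was -0.19 to 0.72. For Eln the interval was -0.68 to 0.45, for Bgn -0.90 to 0.45, for Cdh13 -0.29 to 0.23, for Jag1 -0.17 to 0.37 and for Hey2 -0.52 to 0.73. The marker Ccn3 had 175 ± 74.2 against 278 ± 57.5 CPM, and it lay lowest in R182C-TgN3 3, at 47.5 CPM. Because its counts helped to choose the cells, a genotype test of Ccn3 cannot be read, and these values are only a description. No list held a called gene. In the immediate-early list, 18 of 19 genes lay above 0, though none had an unadjusted p under 0.05 by edgeR. Medians by list ran from -0.02 to 0.15 in the shear stress, elastic matrix, large-artery marker, Notch, barrier transport and immediate-early lists, against 0.00 over all genes. Outside that range were interferon and antigen presentation genes (0.18, with 12 of 12 above 0), venous genes (-0.21), microglia genes (0.67, 4 of 4 above 0), choroid plexus and ependymal genes (-0.92 over 2), smooth muscle genes (0.21 over 3), caveolae genes (-0.04) and single pericyte (0.61) and oligodendrocyte genes (0.36). The erythroid list had the widest spread, with a median of 1.89 over 4 tested genes, and its sum ran from 92.4 to 11558 CPM in R182C-TgN3 mice against 27.9 to 5249.6 CPM in WT-TgN3.

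Whether the genotype difference was unequal between large-artery and other arterial cells was tested as an interaction over 10031 genes, and 0 (0%) were called. An unadjusted p under 0.05 was reached by 462 genes, and DESeq2 called 0, with 124 at such a p. In the immediate-early list, the difference was above 0 for 17 of 19 genes, and 6 of the 19 had such a p by edgeR. In the elastic matrix list it was above 0 for 13 of 15, and 3 of the 15 had such a p. Smallest in p were Ank3, a membrane scaffold, with a difference of log2 fold changes of 1.34 (adjusted p = 0.488), Jazf1 with -0.65 (adjusted p = 0.531) and Emp1 with 0.46 (adjusted p = 0.531). Without R182C-TgN3 3, Ank3 alone was called, with 1.53 and adjusted p = 0.0457.

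**Figure D5:**
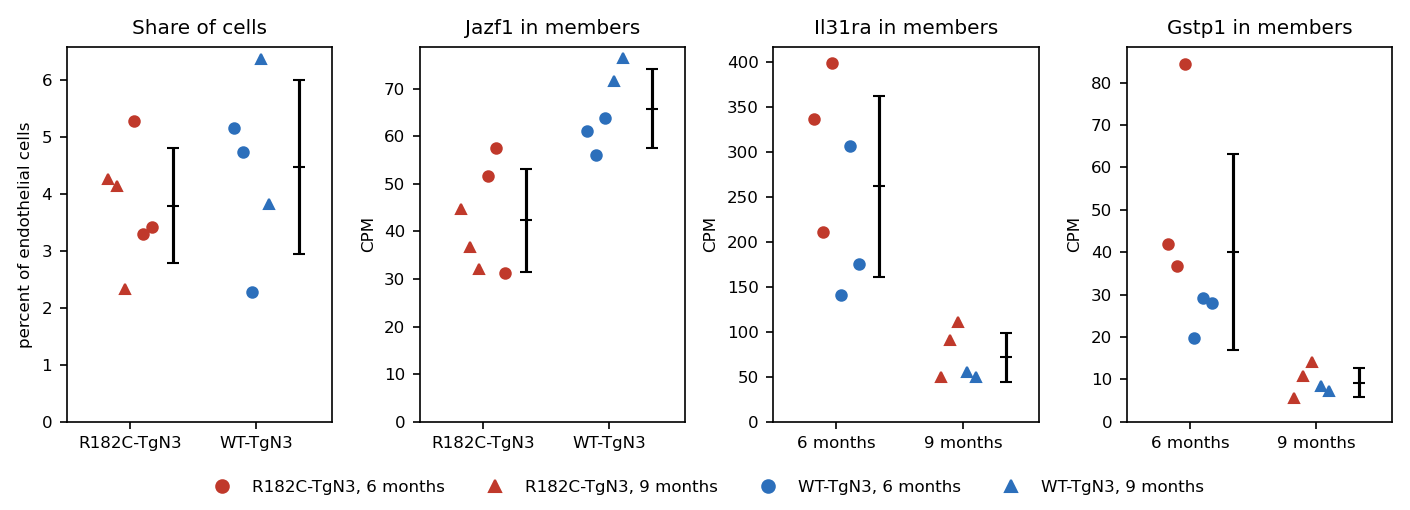
Share of endothelial cells that are large-artery cells (in percent) and Jazf1 (CPM) by genotype, and Il31ra and Gstp1 (CPM) by age, with 1 point for each mouse and a bar at the mean with SD. The genotypes overlap in the share (2.32% to 5.28% against 2.28% to 6.37%), while Il31ra does not overlap between 6 and 9 months (141 to 399 against 49.9 to 110.4 CPM).

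The age comparison, 9 against 6 months with genotype in the model, called 41 of 9022 genes (0.454%), 29 higher (0.321%) and 12 lower (0.133%) at 9 months. Age and preparation batch cannot be told apart, since no batch held both ages. Il31ra, a cytokine receptor subunit, fell most clearly, from 141, 259 and 399 CPM at 6 months (lowest, median, highest of 6 mice) to 49.9, 55.7 and 110.4 CPM at 9 months (of 5 mice), with a log2 fold change of -2.03 (SE 0.24, edgeR adjusted p = 4.47e-04). The same mice had nearly the same Il31ra levels in their other arterial cells, 148 to 381 CPM at 6 and 45.8 to 129 CPM at 9 months. Gstp1, a glutathione transferase with a near-identical neighbour gene that may share its reads, had 19.7, 32.9 and 84.5 against 5.49, 8.46 and 14.1 CPM (-2.31, SE 0.29, adjusted p = 8.32e-04). The other large falls were Xlr5a (-2.76), from a multigene family on the X chromosome, the glutamate receptor subunit Grik1 (-2.06) and Scarletltr (-1.91).

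Higher at 9 months were the AP-1 member Fosl1 (6.49 ± 1.91 at 6 and 18.3 ± 8.73 CPM at 9 months, 1.62), Trib1 (1.58), the urokinase receptor Plaur (1.55), Samd4 (1.32) and the heat shock protein Hsph1 (1.31). In the immediate-early and dissociation stress list, 4 of 19 genes were called, all higher at 9 months and all heat shock genes (Hspa1a, Hspa8, Hspb1 and Dnajb1), with a list median of 0.50 against -0.01 over all genes. Tgfb2, of the arterial and TGF-beta lists (-0.58, adjusted p = 0.0479), and Igf2, of the fibroblast list (-1.05, adjusted p = 0.0361), were lower at 9 months, and no other list held a called gene. Summed smooth muscle markers were 191 to 398 CPM at 6 and 149.97 to 224 CPM at 9 months, and their part in these results was not tested. The count of 41 rested on single mice. It was 6 without R182C-TgN3 1, 16 without WT-TgN3 1, 17 without WT-TgN3 5, 21 without R182C-TgN3 4, 23 without WT-TgN3 2 or WT-TgN3 3, 25 without R182C-TgN3 5, 94 without WT-TgN3 4 and 103 without R182C-TgN3 3.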

How the data were processed

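Single cells of brain vessels from 11 mice were measured with the 10x Genomics 3' assay. The values deposited by the authors are raw UMI counts per gene and barcode, made with Cell Ranger 7.0.0 on the mm10 transcriptome with human NOTCH3 added. Counts of 3' ends are not scaled by gene length, so levels are not compared between genes. No doublet caller was applied in the main results, and removing the highest doublet scores was an alternative.

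Here, counts were summed per mouse and class and tested with edgeR 4.0.16 (TMM scaling, filterByExpr, quasi-likelihood test) at an adjusted p under 0.05, without ribosomal, mitochondrial, Gm and Rik genes. DESeq2 1.42.0 was an alternative. Shares were compared by exact permutation over mice. Both steps were tested on simulated data. Counting list genes that pass the low-count limit in both classes was added after seeing the data. The 3 comparisons other than age had genotype or class as the factor, and age was tested with genotype in the model. Intervals of shares cover counting error only.

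The members and lists were chosen with earlier results of these data known. Named genes are those of the rules with Cdh13, NOTCH3 and Notch3, the 12 largest rises and falls in the same direction in every mouse with 50 CPM or more, up to 3 called rises and falls of smallest p per list, and the 5 largest called rises and falls by age or, where none was called, the 3 of smallest p. Acta2, Bmp4, Cst3, Dll4, Efemp2, Eln, Fbn1, Fn1, Hspa8, Kcnn4, Lox, Meg3, Notch1, Nr2f2, Rgcc, Slc38a5, Tagln, Vcan, the heat shock genes of the age comparison and the genes with no count were named after their values were seen. Some genes that the rule names are not reported here.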

Additional observations from a re-analysis of the deposited data

Results flagged for a closer look

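In 108 sets of values, each a gene's level in the large-artery cells of 1 genotype or the share of these cells, 15 had a highest or lowest mouse far from the others by Dixon's test, where chance gives about 1 in 20. Of these, 8 were in WT-TgN3 5, the library with neuronal RNA. It was lowest of the WT-TgN3 mice for Bgn (20.5 CPM, others 135 to 163), Emp3 (67.5 CPM, others 146 to 173), Mgp (1202 CPM, others 2949 to 3422) and Kcnn4 (6.03 CPM, others 29.8 to 37.2). It was highest for Ccdc85a (45.8 CPM, others 14.7 to 21.9), Mt2 (44.6 CPM, others 6.86 to 15.3), Mt1 (138 CPM, others 32.0 to 52.5) and Klf4 (1865 CPM, others 1204 to 1362). The other WT-TgN3 values set apart were S100a4 at 155 CPM (others 85.7 to 106) and Fabp4 at 113 CPM (others 21.9 to 44.8) in WT-TgN3 2, Mfsd2a at 37.9 CPM in WT-TgN3 4 (others 16.6 to 21.1) and Ndnf at 25.1 CPM in WT-TgN3 1 (others 4.01 to 9.64). Among R182C-TgN3 mice, Ssu2 was at 81.3 CPM in mouse 6 (others 46.8 to 58.8), Igfbp4 at 187 CPM in mouse 3 (others 54.9 to 97.0) and Fosl1 at 21.5 CPM in mouse 1 (others 6.82 to 12.2).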

How the results depend on the processing

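Of 2974 values of the 120 genes named in the class comparison under its alternatives, 2877 kept direction and call, 97 kept the direction and lost the call, and 0 reversed. For large-artery against other arterial endothelial cells, 1774 genes were called in WT-TgN3 mice alone, 1911 with no replicate block (no mouse term) and 1390 after thinning to 2000 UMIs, where fewer genes and molecules enter. For genotype in large-artery endothelial cells, leaving out 1 mouse at a time gave 0 to 1 called genes. For the genotype effect in large-artery minus other arterial endothelial cells, the count was 0 to 1 likewise, and 29 without a filter on low counts, and the cause was not tested. For age in large-artery endothelial cells, DESeq2 called 72 genes, the edgeR test without a filter 450, cells with no UMI of the other-cell genes gave 20, and leaving out single mice 6 to 103. Same-numbered mice of equal age were correlated at -0.12 to 0.15 in their deviations, and 2 of 10 correlated best with their own number. These values give no ground to pair the mice by number, though they cannot show that no pairing existed. With the numbers as a replicate block, 0 of 8997 genes were called by genotype and the share of large-artery endothelial cells differed by -0.389 points. Removing barcodes found in several libraries was chosen after seeing the data. The share of large-artery endothelial cells differed by -0.206 to -1.23 points with 1 mouse left out. With 70 to 260 cells per mouse, genes at a few CPM rest on few molecules.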
